A study of Mus musculus with 33 samples.

Results

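The forebrain is laid out in regions by transcription factors that each hold to part of it, and the genes described here are mostly such factors: homeobox genes of the Dlx, Emx, Lhx, Isl, Meis, Pbx, Pou, Irx, Gsx and Zfhx families and of the family of Six3, and the zinc finger genes of the Zic family. Dlx1as, Dlx6as1, Emx2os and Six3os1, also described, are transcripts from the opposite strand beside such genes and are not factors. All were chosen by symbol alone, as every gene whose symbol starts with one of these family names followed by a digit, other than Lhx8, and 68 of the 23366 genes in the count tables matched. Of these, 45 had CPM (counts scaled to the size of the library) that summed to at least 5 over the libraries in both tables, and these 45 are the members described below. The other 23 stayed under that sum in a table, 3 of them in the female table alone, and most are genes of hindbrain, spinal cord, sensory organs or lymphoid cells, such as Irx3, Isl2, Lhx1, Pou4f1 and Pou2af1.

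Frontal cortex of C57BL/6 offspring, about 1 month old, was measured by RNA-Seq, with each sex in a table and a sequencing run of its own, so that sex and run cannot be told apart. Control offspring breathed filtered air, ExposedNic offspring e-cigarette aerosol from a liquid with 13 to 16 mg/ml of nicotine, and ExposednoNic offspring aerosol of the same tobacco-flavoured product without nicotine. Dams were exposed in whole-body chambers, with a chamber for each treatment, through gestation and then together with their pups through lactation, and a single pup was taken per litter, so the chamber and the treatment cannot be told apart. The female table held 6 Control, 5 ExposedNic and 5 ExposednoNic libraries, and the male table held 6 Control, 6 ExposedNic and 5 ExposednoNic libraries.

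Total counts ran from 17845672 to 27513174 over the 33 libraries. The library labelled male ExposedNic 21 went against its label, with 215 CPM of Xist, which marks a silenced X chromosome, and 1 count on 4 Y-linked genes, where the other 16 libraries labelled male had at most 0.253 CPM of Xist. It was kept under its label. For its comparison with air, the edgeR counts of calls and signs are also given without it, as are values that turned sign or lay nearest the threshold. Counts of libraries without overlap, DESeq2 calls and, outside the leave-one-out ranges, the other comparisons include it. Defining markers of frontal cortex were present in every library, with a summed level of 15 excitatory neuron markers of 4299 to 10650 CPM.

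In the embryo the telencephalon divides into a dorsal part, the pallium, which forms the cortex and its excitatory neurons, and a ventral part, the subpallium, which forms the striatum, the septum and the basal forebrain and sends inhibitory interneurons to the cortex. Emx1, Emx2 and Lhx2 mark the pallium, while Gsx and Dlx genes, Lhx6, Isl1, Six3 and Zic1 are used in the subpallium, the septum and their neighbours, each in its own subset of cells. Many of these factors stay on in adult neurons, so their RNA in a piece of tissue depends on which neurons it holds. In bulk tissue, fewer cells of a type and less RNA per cell cannot be told apart.

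The sequences before the start sites of 6 members are shown because they belong to the genes on which the results below turn: the neighbours Six3 and Six3os1, the neighbours Zic1 and Zic4, Isl1, and Emx1, a pallial member that fell. Each is the 250 bases before the RefSeq start (GRCm38.p6), found once in mm9, and written in the direction of transcription. Capitals mark TGACAG, the core site of Meis proteins, on either strand. The mm9 positions are chr17:86019924-86020173 for Six3 (plus strand), chr17:86017737-86017986 for Six3os1 (minus strand), chr9:91260607-91260856 for Zic1 (minus strand), chr9:91263560-91263809 for Zic4 (plus strand), chr13:117099897-117100146 for Isl1 (minus strand) and chr6:85137675-85137924 for Emx1 (plus strand).
Six3: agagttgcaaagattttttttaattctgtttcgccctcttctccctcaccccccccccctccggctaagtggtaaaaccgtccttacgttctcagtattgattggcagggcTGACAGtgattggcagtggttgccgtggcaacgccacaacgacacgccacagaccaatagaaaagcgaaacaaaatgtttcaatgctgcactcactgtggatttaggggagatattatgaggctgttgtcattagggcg
Six3os1: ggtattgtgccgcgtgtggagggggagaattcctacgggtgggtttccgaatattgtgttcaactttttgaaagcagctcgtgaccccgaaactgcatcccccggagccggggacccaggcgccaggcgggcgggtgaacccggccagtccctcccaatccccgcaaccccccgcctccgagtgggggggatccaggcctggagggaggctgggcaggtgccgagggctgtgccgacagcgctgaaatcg
Zic1: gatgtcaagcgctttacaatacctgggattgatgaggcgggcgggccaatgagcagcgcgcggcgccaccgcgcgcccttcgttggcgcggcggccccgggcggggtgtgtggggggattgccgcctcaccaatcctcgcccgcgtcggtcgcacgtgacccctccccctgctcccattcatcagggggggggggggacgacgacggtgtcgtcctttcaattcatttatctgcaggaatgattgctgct
Zic4: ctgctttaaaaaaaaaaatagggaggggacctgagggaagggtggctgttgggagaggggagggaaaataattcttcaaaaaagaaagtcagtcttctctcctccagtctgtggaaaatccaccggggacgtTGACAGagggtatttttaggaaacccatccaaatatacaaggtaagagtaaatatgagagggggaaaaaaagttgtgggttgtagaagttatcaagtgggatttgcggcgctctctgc
Isl1: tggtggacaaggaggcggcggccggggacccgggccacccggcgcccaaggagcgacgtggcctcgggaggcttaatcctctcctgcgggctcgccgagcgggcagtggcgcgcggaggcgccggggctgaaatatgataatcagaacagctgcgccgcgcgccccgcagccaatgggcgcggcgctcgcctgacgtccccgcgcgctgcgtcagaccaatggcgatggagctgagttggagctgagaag
Emx1: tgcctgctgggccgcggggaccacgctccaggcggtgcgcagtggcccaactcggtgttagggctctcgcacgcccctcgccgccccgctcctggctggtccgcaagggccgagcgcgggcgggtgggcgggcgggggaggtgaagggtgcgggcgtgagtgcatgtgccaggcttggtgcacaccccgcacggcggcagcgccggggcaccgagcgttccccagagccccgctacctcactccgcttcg
TGACAG stood 139 bases before the start of Six3 and 118 bases before that of Zic4. It was present in 5 of the 32 members with a RefSeq promoter (Lhx9, Six2, Six3, Six5 and Zic4) and in 15.9% of the 32851 promoter windows of the same length. The homeodomain core TAATTA was in 4.84% of all windows and in 1 member (Dlx6as1), and CAGCAGG, a Zic site, in 8.44% of windows and in 2 members (Emx1 and Pou3f3). ATGCAAAT, the octamer bound by Pou proteins, was in 1.6% of windows and in 0 members. These matches were counted on both strands and describe letters only. The promoters of members were rich in G and C, with a median of 62.4% against 52.4% over all windows.

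In air-exposed offspring the members spanned over 2 orders of magnitude per exon length, on a scale of CPM per kb of exon. Pou6f1 (33.7 in females and 30.8 in males), Pou3f3 (30.5 and 31.8) and Lhx2 (26.8 and 26.4) were among the highest, and the order within this trio is not separable from the spread between libraries. Lhx5 (0.0672 and 0.114), Irx6 (0.121 and 0.124) and Zic5 (0.142 and 0.144) were lowest in females, and in males Six4 (0.2 in females, 0.132 in males) lay below Zic5. The ventral members lay between: Lhx6 at 5.72 and 5.84, Dlx5 at 4.89 and 6.19, Zic1 at 2.98 and 3.8, Isl1 at 2.38 and 2.76 and Six3 at 1.6 and 1.95 CPM per kb. The spread between Control libraries differed among members, with a coefficient of variation of up to 75.3% (Lhx5) in females and from 4.52% (Pbx2) to 81.5% (Lhx9) in males. Isl1 (44.3%) and Six3 (40.9%) varied widely among female Controls and less among male Controls (16.1 and 23.3%).

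**Figure D1:**
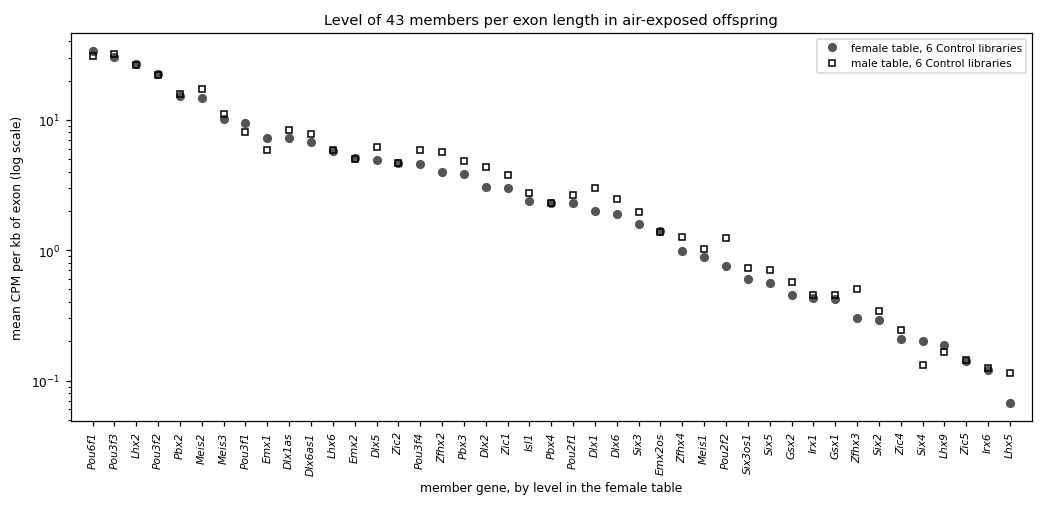
Mean CPM per kb of exon on a log axis for 43 members in the 6 Control libraries of each table, ordered by the female level (filled circles, female table; open squares, male table). In females Pou6f1 stands at 33.7 and Lhx5, the lowest, at 0.0672 CPM per kb.

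Whether aerosol changed these genes was asked within each table against air, and in 3 of the 4 comparisons Isl1, Pbx3, Six3, Six3os1, Zfhx3 and Zic1 rose, while Emx1 fell in the 2 comparisons without nicotine. Not all members of like regions were called by edgeR: the ventral Dlx1, Dlx2, Gsx1 and Gsx2 and the dorsal Emx2 and Lhx2 passed its test in none of the 4. DESeq2 called Gsx2 higher and Emx2 lower in female ExposednoNic, and Lhx2 lower in male ExposednoNic. Below, called means by edgeR where no tool is named. Without nicotine, 13 members rose and 2 fell in females (adjusted p below 0.01, edgeR), where 5.03% of the 15158 genes tested were called higher and 7.03% lower. In males without nicotine 11 rose and 2 fell, where 6.15% of 15293 genes were called higher and 7.47% lower. DESeq2 called 18 members in female ExposednoNic, beside 2591 of 15158 genes, and 16 in male ExposednoNic, beside 2624 of 15293 genes. With nicotine, 8 members rose and 0 fell in females, beside 1.98% of genes called higher and 2.32% lower. Leaving out 1 library at a time gave 0 to 12 members in female ExposedNic, with 0 without Control replicate 6 or ExposedNic replicate 1 or 2, 7 to 20 in female ExposednoNic and 10 to 14 in male ExposednoNic. At an unadjusted p under 0.05 the female ExposedNic comparison had 24 members, the 8 included, or 53.3%, beside 28.1% of all genes. DESeq2 called 15 members there, Emx1 as the 1 that was lower, beside 8.7% of all genes in either direction. In males with nicotine 0 members were called by edgeR, as were 0.0% of all genes in either direction, although 15 members (11 higher, 4 lower), or 33.3%, had an unadjusted p under 0.05, beside 14.4% of all genes. DESeq2 called 4 there, Dlx6, Isl1, Six3 and Six3os1, all higher, beside 1.04% of all genes in either direction. Without the library labelled male ExposedNic 21, the count stayed at 0 by edgeR, with 14 members at an unadjusted p under 0.05, beside 13.1% of all genes. The adjusted p of Isl1 and Six3os1 was then 0.073, that of Dlx6 0.0868 and that of Six3 0.096.

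Seen over all 4 comparisons with air, 17 members were called at least once by edgeR, 14 higher and 3 lower. Isl1, Pbx3, Six3, Six3os1, Zfhx3 and Zic1 were called in 3 of them, and 11 members were called in both ExposednoNic comparisons. The median log2 fold change of the 45 members was 0.19 in female ExposedNic, 0.21 in female ExposednoNic, 0.12 in male ExposedNic and 0.25 in male ExposednoNic offspring, beside at most 0.02 over all genes. The sign was positive in all 4 comparisons for 25 members and negative in all 4 for 7 members. Without the library labelled male ExposedNic 21 these counts were 22 and 7, as the male ExposedNic values of Dlx2 (0.04 to -0.14), Zfhx4 (0.04 to -0.03) and Zic4 (0.12 to -0.01) turned negative. Those of Pou3f3 (-0.006 to 0.002), Six2 (-0.037 to 0.02) and Zfhx2 (-0.019 to 0.012) turned positive. The comparisons within a table share their Control libraries, so these counts are not independent of each other.

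**Figure D2:**
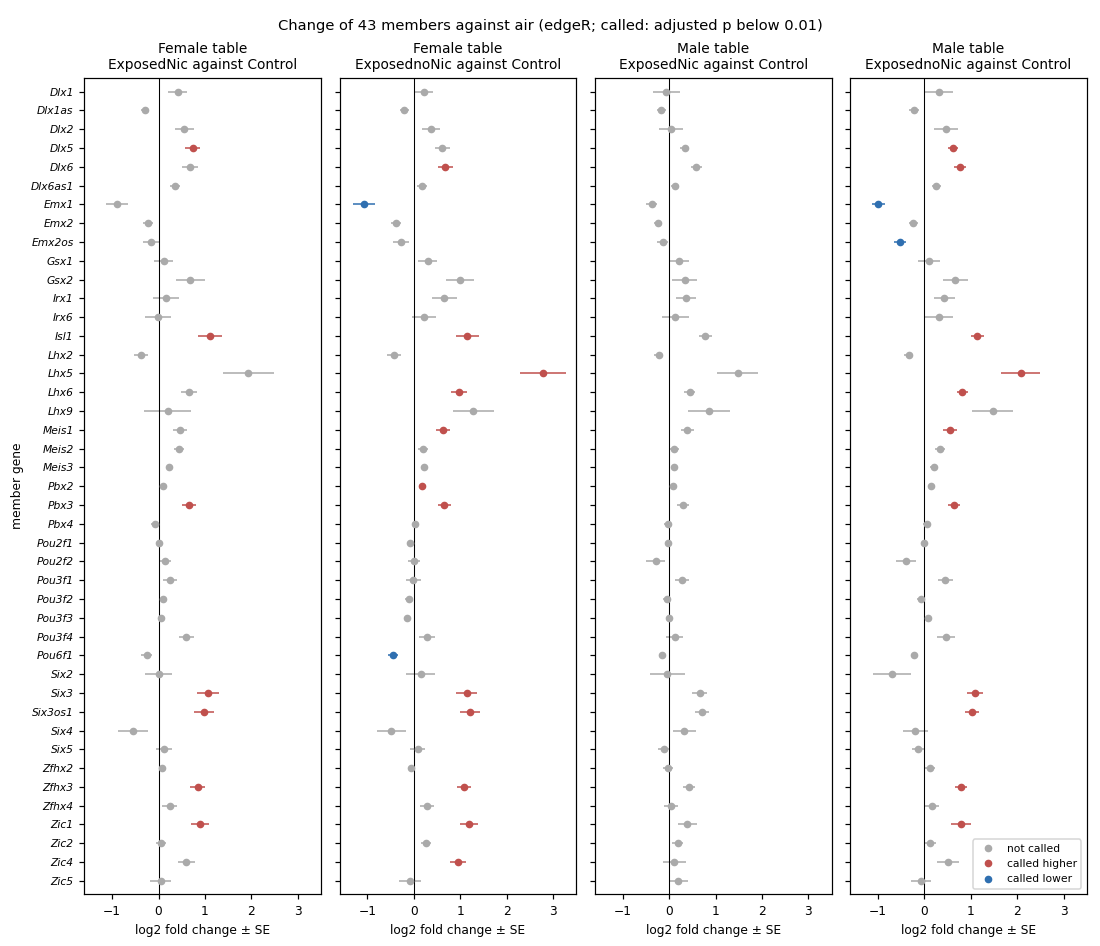
Log2 fold change against Control with its standard error for 43 members, in the 2 female and 2 male comparisons; coloured points were called at adjusted p below 0.01 (red higher, blue lower). Called points are 7, 14, 0 and 13 from left to right, and Lhx5 lies farthest to the right.

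Library by library, 6 members lay above every Control library in female ExposedNic offspring (Dlx5, Isl1, Pbx3, Six3, Zfhx3 and Zic1), as did 3.07% of all genes, and 0 lay below, beside 3.6%. In female ExposednoNic offspring 5 lay above (Lhx6, Pbx2, Six3, Zfhx3 and Zic1; 4.4% of all genes) and 0 below (6.27%). Male ExposedNic libraries were all above Control for Isl1 (0.804% of all genes) and all below for Emx1 (1.24%). Six3os1 overlapped Control there only through replicate 21, which went against its label (8.23 CPM beside at most 8.46 CPM in Control). In male ExposednoNic libraries 10 members lay above (5.48%) and Emx1 and Emx2os below (6.94%).

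Six3 is a repressor needed for the rostral forebrain to form, and later for parts of the striatum and septum. It lies at chr17:86012948-86031153, plus strand, in mm9. In females its level was 6.61 to 19.5 CPM (median 15.98) in the 6 Control libraries, 25.5, 28, 28.99, 29.6 and 34.6 CPM in ExposedNic and 22.1, 28.7, 33.4, 35.1 and 35.2 CPM in ExposednoNic. In males it was 11.8 to 22.6 CPM (median 16.2) in Control, 20.02 to 35.4 CPM (median 27.6) in ExposedNic and 28.4, 29.3, 39.2, 42.3 and 42.9 CPM in ExposednoNic. Both female exposed groups and the male ExposednoNic group were wholly above Control, whereas male ExposedNic overlapped it. The log2 fold change with its standard error was 1.06 ± 0.23 (adjusted p = 0.00701) in female ExposedNic, 1.14 ± 0.23 (adjusted p = 0.00215) in female ExposednoNic, 0.66 ± 0.16 (adjusted p = 0.0796) in male ExposedNic and 1.10 ± 0.17 (adjusted p = 0.000167) in male ExposednoNic offspring. In both ExposednoNic comparisons the call was kept in every fit that left out 1 library, and in female ExposedNic in 9 of 16 fits, with an adjusted p of 0.0225 without ExposedNic replicate 2.

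Six3os1, the transcript on the opposite strand at chr17:85999991-86017736, minus strand, shares 106 exon bases with Six3, and the counting is not stated to use strand, so reads in that stretch cannot be assigned. Females had 3.45 to 8.47 CPM (median 5.19) in Control, 7.87, 9.47, 11.6, 11.8 and 12.2 CPM in ExposedNic and 7.90, 10.8, 13.01, 14.6 and 15.9 CPM in ExposednoNic, and males 4.45 to 8.46 CPM (median 6.37), 8.23 to 12.2 CPM (median 10.6) and 11.03, 11.5, 11.6, 14.6 and 17.3 CPM. Only male ExposednoNic libraries were wholly clear of Control. In male ExposedNic only replicate 21 (8.23 CPM), which went against its label, lay below the highest Control (8.46 CPM). The changes were 0.98 ± 0.22 (adjusted p = 0.00922), 1.21 ± 0.22 (adjusted p = 0.00143), 0.71 ± 0.15 (adjusted p = 0.0416) and 1.03 ± 0.15 (adjusted p = 0.000132) in the same order of comparisons, which is also the order of the changes given for each gene below. The female ExposedNic call was kept in 4 of 16 fits that left out a library (adjusted p of 0.0289 without ExposedNic replicate 2). The ratio of Six3 to Six3os1 counts had a median of 2.46 to 2.82 in all 6 groups, with overlapping ranges, so the pair moved by like amounts. Its paralogs Six2, 52454 bases away, Six4 and Six5 were low and not called, and Six4 had the lowest value among uncalled members of female ExposedNic (-0.55).

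Isl1, a LIM homeobox factor of cholinergic and striatal neurons (chr13:117088478-117099896, minus strand), showed the clearest rise in males. Its male levels were 5.45 to 8.41 CPM (median 6.73) in Control, 9.80 to 13.8 CPM (median 12.2) in ExposedNic and 12.4, 12.5, 15.1, 15.4 and 21.1 CPM in ExposednoNic, so that both exposed groups lay wholly above air. Female levels were 3.32 to 10.6 CPM (median 5.13) in Control, 10.7, 12.01, 12.4, 14.7 and 15.3 CPM in ExposedNic and 7.37, 11.6, 12.9, 16.3 and 19.04 CPM in ExposednoNic, with 1 ExposednoNic library among the Controls. The changes were 1.11 ± 0.26 (adjusted p = 0.00995), 1.16 ± 0.25 (adjusted p = 0.00408), 0.78 ± 0.14 (adjusted p = 0.0334) and 1.14 ± 0.14 (adjusted p = 3.34e-05). The male ExposedNic value was the lowest adjusted p of any member in that comparison, and it became 0.073 without replicate 21 and 0.00909 when only the ExposedNic and Control libraries were fitted. In females the call was kept in 3 of 16 fits that left out a library with nicotine (0.031 without ExposedNic replicate 2) and 9 of 16 fits without nicotine (0.0153 without ExposednoNic replicate 5).

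Lhx6, which specifies interneurons born in the medial ganglionic eminence and stays on in them (chr2:35937470-35960928, minus strand), was the most abundant ventral LIM factor. Control levels were 21.8 to 32.2 CPM (median 26.5) in females and 22.2 to 31.4 CPM (median 29.4) in males. ExposedNic libraries had 28.1, 38.95, 48.4, 48.6 and 50.01 CPM in females and 30.8 to 41.4 CPM (median 39.3) in males, and ExposednoNic libraries 34.5, 43.1, 58.5, 59.8 and 69.9 and 38.2, 40.2, 48.2, 53.7 and 62.1 CPM. Without nicotine every library of either sex was above Control, and with nicotine the groups overlapped at their edges. The changes were 0.66 ± 0.17 (adjusted p = 0.02), 0.97 ± 0.17 (adjusted p = 0.0013), 0.45 ± 0.12 (adjusted p = 0.0885) and 0.81 ± 0.12 (adjusted p = 0.000125), and both ExposednoNic calls held in every fit that left out a library.

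Lhx5, a factor of the hypothalamus, the septum and the embryonic cortical hem (chr5:120881895-120891466, plus strand), had the largest fold change of any member on the smallest counts. Control libraries held 2 to 11 counts each in either sex, that is 0.0755 to 0.452 CPM (median 0.155) in females and 0.0889 to 0.589 CPM (median 0.268) in males. Exposed females had 0.225, 0.658, 0.849, 0.875 and 1.01 CPM with nicotine and 0.326, 0.827, 1.73, 1.75 and 1.91 CPM without, and exposed males 0.410 to 1.35 CPM (median 0.867) and 0.616, 0.709, 1.35, 1.48 and 2.21 CPM. Only the male ExposednoNic libraries were clear of Control. The changes were 1.94 ± 0.55 (adjusted p = 0.0282), 2.79 ± 0.49 (adjusted p = 0.00127), 1.48 ± 0.44 (adjusted p = 0.12) and 2.07 ± 0.42 (adjusted p = 0.00154). The pallial factor Lhx2 was negative in all 4 comparisons without a call by edgeR (-0.37, -0.43, -0.23 and -0.34). Lhx9, of thalamus and hypothalamus, was positive in all 4 without a call by edgeR (0.19, 1.28, 0.87 and 1.47) at a mean of 0.92 to 2.61 CPM. In male ExposednoNic DESeq2 called Lhx2 lower (adjusted p = 0.0085) and Lhx9 higher (adjusted p = 0.00808).

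**Figure D3:**
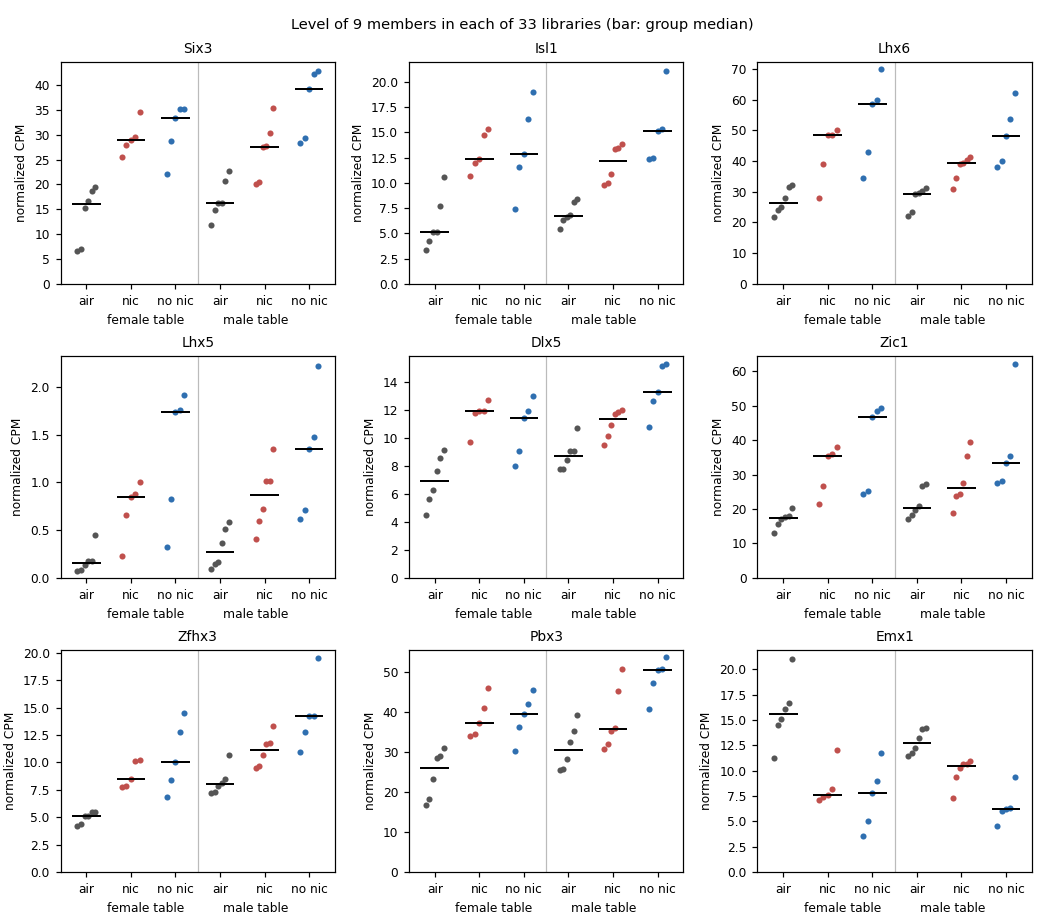
Normalized CPM of 9 members in each library, grouped as air (Control), nic (ExposedNic) and no nic (ExposednoNic) in the female table (left of the line) and the male table (right); bars are group medians. Medians of exposed groups sit higher than air for 8 members and lower for Emx1, and the male ExposedNic median lies between air and no nic in all 9 panels.

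Dlx genes turn on in the subpallium in pairs and drive GABAergic neurons, and here Dlx5 and Dlx6 were called while Dlx1 and Dlx2 were not, a difference between the pairs that was given no test. The ratio of Dlx5 to Dlx2 counts overlapped Control in every exposed group. Dlx5 (chr6:6827805-6832085, minus strand) stood at 4.50 to 9.17 CPM (median 6.96) in female Control, 9.75, 11.8, 11.9, 11.9 and 12.7 CPM in ExposedNic and 7.99, 9.09, 11.4, 11.97 and 13.01 CPM in ExposednoNic libraries. In males it stood at 7.77 to 10.7 CPM (median 8.76), 9.53 to 11.99 CPM (median 11.3) and 10.8, 12.7, 13.3, 15.2 and 15.3 CPM. Female ExposedNic and male ExposednoNic libraries were all above Control. The changes were 0.73 ± 0.16 (adjusted p = 0.00766), 0.61 ± 0.16 (adjusted p = 0.0105), 0.33 ± 0.096 (adjusted p = 0.115) and 0.62 ± 0.099 (adjusted p = 0.000247), and the female ExposedNic call was kept in 7 of 16 fits that left out a library (0.0238 without ExposedNic replicate 2).

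Dlx6 (chr6:6813334-6818568, plus strand), 9236 bases from Dlx5, had 3.13 to 6.003 CPM (median 4.47), 5.98, 7.10, 7.30, 7.50 and 8.24 CPM and 4.73, 7.15, 7.21, 8.26 and 8.88 CPM in females and 5.04 to 7.28 CPM (median 5.74), 7.23 to 11.2 CPM (median 8.65) and 8.003, 9.22, 9.72, 11.2 and 11.6 CPM in males. Male ExposednoNic libraries were all above Control and the other groups overlapped it. The changes were 0.68 ± 0.17 (adjusted p = 0.0152), 0.68 ± 0.17 (adjusted p = 0.00763), 0.59 ± 0.12 (adjusted p = 0.0416) and 0.77 ± 0.12 (adjusted p = 0.000231). In female ExposednoNic the call was kept in 6 of 16 fits that left out a library (0.0278 without replicate 2). Dlx1 (0.41, 0.21, -0.06 and 0.31) and Dlx2 (0.56, 0.38, 0.04 and 0.47) were not called in any comparison, and their libraries scattered more: male ExposednoNic Dlx1 ran from 14.1 to 33.8 CPM. Leaving out the library labelled male ExposedNic 21, which held 30.9 CPM of Dlx1, moved that value from -0.06 to -0.38. The noncoding Dlx6as1, which overlaps Dlx6, was positive in all 4 comparisons (0.13 to 0.35) and Dlx1as, antisense to Dlx1 with 335 shared exon bases, negative in all 4 (-0.29 to -0.17), both without a call. Gsx1 and Gsx2, which act before Dlx genes in the ventral progenitors, stayed near 1 CPM and were not called by edgeR, Gsx2 with 0.69, 0.99, 0.34 and 0.67. DESeq2 called Gsx2 higher in female ExposednoNic (adjusted p = 0.00759).

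Zic genes are zinc finger factors of the septum, the olfactory system, the thalamus and the meninges, and Zic1 and Zic4 rose without nicotine in females while Zic2 and Zic5 were not called in any comparison. Zic1 (chr9:91252896-91260648, minus strand) had 12.96 to 20.3 CPM (median 17.4) in female Control, 21.6, 26.8, 35.4, 36.01 and 38.03 CPM in ExposedNic and 24.4, 25.3, 46.7, 48.5 and 49.2 CPM in ExposednoNic libraries. Male values were 17.1 to 27.1 CPM (median 20.4), 18.9 to 39.3 CPM (median 25.97) and 27.5, 28.2, 33.3, 35.3 and 61.9 CPM. All 10 exposed female libraries were above Control, and the 5 male ExposednoNic libraries were too, the lowest by a narrow margin. The changes were 0.90 ± 0.20 (adjusted p = 0.00838), 1.20 ± 0.20 (adjusted p = 0.000934), 0.39 ± 0.20 (adjusted p = 0.402) and 0.79 ± 0.21 (adjusted p = 0.00973). The male call rested on few libraries: it was kept in 6 of 17 fits, and without ExposednoNic replicate 4, at 61.9 CPM, the change was 0.52 with an adjusted p of 0.0398. The female ExposedNic call was kept in 6 of 16 fits (0.0263 without ExposedNic replicate 1) and the female ExposednoNic call in all 16.

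Zic4 (chr9:91257251-91284186, plus strand) overlaps Zic1 head to head by 60 exon bases. It had 1.68 to 2.84 CPM (median 2.14), 2.52, 3.07, 3.40, 3.51 and 3.70 CPM and 2.69, 3.38, 4.25, 4.996 and 5.35 CPM in females, with Control and exposed ranges that touched. The male values were 2.04 to 3.11 CPM (median 2.58), 1.57 to 3.81 CPM (median 2.54) and 2.43, 2.75, 2.87, 3.49 and 6.40 CPM, again highest in ExposednoNic replicate 4. The changes were 0.59 ± 0.18 (adjusted p = 0.0393), 0.94 ± 0.17 (adjusted p = 0.00156), 0.12 ± 0.24 (adjusted p = 0.877) and 0.51 ± 0.24 (adjusted p = 0.133), and the one call held in all 16 fits that left out a library.

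Zic2 and Zic5, neighbours on chromosome 14 with 9704 bases between them, had changes of 0.05 to 0.27 and -0.08 to 0.20. Zic2 was as abundant as Zic1 in Control, with means of 19.4 ± 2.98 CPM in females and 19.6 ± 2.97 in males (SD, n = 6).

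Pbx and Meis proteins are homeodomain cofactors of the TALE class that bind DNA side by side, and Pbx3, Pbx2 and Meis1 were called. Pbx3 (chr2:34026977-34228660, minus strand) had 16.7 to 30.9 CPM (median 25.9), 33.9, 34.3, 37.2, 40.95 and 45.9 CPM and 30.2, 36.2, 39.4, 41.9 and 45.5 CPM in females and 25.5 to 39.1 CPM (median 30.3), 30.6 to 50.6 CPM (median 35.6) and 40.8, 47.1, 50.3, 50.6 and 53.5 CPM in males. Female ExposedNic and male ExposednoNic libraries were all above Control. The changes were 0.65 ± 0.15 (adjusted p = 0.009), 0.66 ± 0.15 (adjusted p = 0.00432), 0.30 ± 0.13 (adjusted p = 0.273) and 0.65 ± 0.13 (adjusted p = 0.00151). Leaving out 1 library kept the call in 5 of 16 fits in female ExposedNic (0.0252 without ExposedNic replicate 1), in 12 of 16 fits in female ExposednoNic (0.0164 without ExposednoNic replicate 2) and in all 17 in males. Pbx4 was not called, with changes of -0.09 to 0.06.

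Pbx2 (chr17:34728211-34734345, plus strand), with 5.23% of its 50-base stretches shared with the neighbouring Gpsm3, was called in female ExposednoNic alone, for a small change on tight replicates. It had 51.6 to 59.7 CPM (median 54.2) in Control and 59.9, 61.8, 62.7, 63.5 and 63.5 CPM in ExposednoNic, where every library was above Control. The ExposedNic values were 57.1, 58.1, 59.6, 59.9 and 62.4 CPM, and males had 53.9 to 61.03 CPM (median 57.1), 57.5 to 65.98 CPM (median 60.5) and 59.2, 59.7, 64.2, 64.96 and 65.8 CPM. The changes were 0.10 ± 0.041 (adjusted p = 0.114), 0.17 ± 0.041 (adjusted p = 0.00675), 0.09 ± 0.043 (adjusted p = 0.329) and 0.13 ± 0.045 (adjusted p = 0.0366), with the call kept in 5 of 16 fits (0.0255 without ExposednoNic replicate 3).

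Meis1 (chr11:18780433-18918961, minus strand), of which 12.1% of exon bases lie opposite the transcript Gm16140, had 5.32 to 7.90 CPM (median 6.46), 7.10, 8.45, 8.86, 10.3 and 10.6 CPM and 7.62, 8.93, 9.99, 11.1 and 13.2 CPM in females and 6.20 to 8.59 CPM (median 7.40), 7.38 to 12.8 CPM (median 9.48) and 7.96, 10.2, 12.03, 12.4 and 12.8 CPM in males, with overlap in each comparison. The changes were 0.47 ± 0.15 (adjusted p = 0.046), 0.63 ± 0.14 (adjusted p = 0.00486), 0.39 ± 0.14 (adjusted p = 0.204) and 0.56 ± 0.14 (adjusted p = 0.00867). The 2 calls were kept in 10 of 16 fits (0.0199 without ExposednoNic replicate 3) and 7 of 17 fits (0.0274 without ExposednoNic replicate 4). Meis2, far more abundant in striatum than in cortex, had 174 ± 33 CPM in female and 204 ± 26 in male Control (SD, n = 6) and was not called by edgeR, with changes of 0.43, 0.19, 0.11 and 0.34. Meis3 was not called by edgeR either, with 0.12 to 0.23. DESeq2 called Meis2 (adjusted p = 0.00323) and Meis3 (adjusted p = 0.00761) higher in female ExposedNic.

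Zfhx3, a very large factor with many zinc fingers and homeodomains that is used in the suprachiasmatic nucleus and the striatum (chr8:111238544-111485521, plus strand), had the lowest adjusted p of any member in both female comparisons. Its female levels were 4.19 to 5.47 CPM (median 5.11) in Control, 7.76, 7.82, 8.49, 10.1 and 10.2 CPM in ExposedNic and 6.84, 8.39, 10.1, 12.8 and 14.5 CPM in ExposednoNic. The male levels were 7.20 to 10.7 CPM (median 8.004), 9.53 to 13.3 CPM (median 11.2) and 10.99, 12.8, 14.2, 14.3 and 19.5 CPM. All exposed groups but male ExposedNic were wholly above Control. The changes were 0.84 ± 0.16 (adjusted p = 0.00379), 1.08 ± 0.16 (adjusted p = 0.000841), 0.42 ± 0.13 (adjusted p = 0.135) and 0.80 ± 0.13 (adjusted p = 0.000327), and only the female ExposedNic call was lost in some fits, being kept in 12 of 16 fits (0.0134 without ExposedNic replicate 2). Its paralogs were not called, Zfhx4 with 0.04 to 0.29 and Zfhx2 with -0.06 to 0.12.

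Emx1, which is expressed in the progenitors of cortical excitatory neurons and in those neurons themselves (chr6:85137432-85154456, plus strand), was the member that fell most. Control libraries had 11.2 to 21.04 CPM (median 15.6) in females and 11.5 to 14.3 CPM (median 12.7) in males. ExposedNic libraries had 7.11, 7.36, 7.60, 8.16 and 12 CPM in females and 7.31 to 10.99 CPM (median 10.5) in males, and ExposednoNic libraries 3.55, 5.004, 7.85, 9.02 and 11.8 and 4.56, 6.04, 6.18, 6.33 and 9.38 CPM. Both male exposed groups lay wholly below air, whereas 1 library of each female exposed group reached the lowest Control. The changes were -0.90 ± 0.23 (adjusted p = 0.0181), -1.08 ± 0.23 (adjusted p = 0.00368), -0.38 ± 0.13 (adjusted p = 0.172) and -0.99 ± 0.14 (adjusted p = 8.27e-05). The female ExposednoNic call was kept in 15 of 16 fits (0.013 without replicate 2) and the male one in all 17.

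The paralog Emx2 was negative in all 4 comparisons without a call by edgeR (-0.23, -0.39, -0.24 and -0.24). DESeq2 called Emx2 lower in female ExposednoNic (adjusted p = 0.00609). Emx2os, transcribed away from Emx2 with 54 bases between them (chr19:59499594-59533125, minus strand), was called in males without nicotine: 5.37 to 8.58 CPM (median 6.64) in Control, 5.02 to 7.76 CPM (median 6.38) in ExposedNic and 3.78, 4.91, 4.97, 5.02 and 5.31 CPM in ExposednoNic, the last wholly below air. Female libraries had 5.89 to 8.16 CPM (median 7.04), 4.56, 5.31, 6.25, 6.64 and 8.49 CPM and 4.12, 4.29, 5.74, 6.87 and 7.78 CPM, which overlapped. The changes were -0.17 ± 0.17 (adjusted p = 0.586), -0.28 ± 0.17 (adjusted p = 0.256), -0.14 ± 0.12 (adjusted p = 0.667) and -0.53 ± 0.13 (adjusted p = 0.00746), with the call kept in 8 of 17 fits (0.0246 without ExposednoNic replicate 3).

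Pou6f1, a POU factor of the adult brain (chr15:100405750-100430415, minus strand), was the 1 member of the 7 Pou genes that edgeR called. It had 175 to 255 CPM (median 185), 145, 148, 167, 168 and 206 CPM and 130, 135, 141, 150 and 175 CPM in females, with the highest ExposednoNic library at the lowest Control, and 167 to 202 CPM (median 181), 153 to 185 CPM (median 162) and 143, 151, 151, 160 and 182 CPM in males. The changes were -0.26 ± 0.11 (adjusted p = 0.135), -0.45 ± 0.11 (adjusted p = 0.00767), -0.15 ± 0.063 (adjusted p = 0.294) and -0.22 ± 0.066 (adjusted p = 0.0227), with the call kept in 8 of 16 fits (0.024 without ExposednoNic replicate 2). The upper layer and precursor genes Pou3f1, Pou3f2 and Pou3f3 were not called by edgeR, nor were Pou3f4 and the octamer factors Pou2f1 and Pou2f2. Pou3f4 was positive in all 4 comparisons (0.60, 0.28, 0.12 and 0.46), and DESeq2 called it higher in female ExposedNic (adjusted p = 0.00646). Pou3f3, at a mean of 93.5 ± 8.8 CPM in female Control (SD, n = 6), had changes of 0.06, -0.15, -0.01 and 0.07.

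Altogether 28 members were not called by edgeR in any comparison with air. Their changes ran from -0.55 (Six4) to 0.69 (Gsx2) in female ExposedNic, from -0.48 (Six4) to 1.28 (Lhx9) in female ExposednoNic, from -0.29 (Pou2f2) to 0.87 (Lhx9) in male ExposedNic and from -0.70 (Six2) to 1.47 (Lhx9) in male ExposednoNic offspring. Between 15 and 22 of the 28 lay within 0.25 of no change on the log2 scale, according to the comparison. Of the 28, DESeq2 called Emx2, Gsx2, Lhx2, Lhx9, Meis2, Meis3 and Pou3f4 in a comparison with air. Irx1 and Irx6, of thalamus and midbrain, were detected at 0.12 to 0.45 CPM per kb and had changes of up to 0.66.

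Within a library, the ratio of the counts of 2 members does not depend on the library's depth and shows only whether they changed unequally. Zic1 to Zic2 had a median of 0.868 in female Control, 1.48 in ExposedNic and 1.84 in ExposednoNic, and of 1.04, 1.1 and 1.7 in males. Of the exposed groups, only female ExposedNic was clear of Control in this ratio. Lhx6 to Lhx2 went from 0.329 to 0.741 and 1.09 in females and from 0.335 to 0.542 and 0.772 in males. Both female exposed groups overlapped Control, starting at 0.334 and 0.383 where Control reached 0.438. The highest of the male ratios in Control, 0.485, lay below the lowest with ExposednoNic, 0.49, and overlapped ExposedNic.

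Isl1 to Lhx2 went from 0.0705 to 0.206 and 0.248 in females and from 0.0857 to 0.167 and 0.246 in males. Female ExposednoNic libraries overlapped Control in this ratio, starting at 0.0819 where Control reached 0.125. Emx1 to Emx2 moved the other way, from 1.16 to 0.688 and 0.782 in females, with no overlap, and from 0.95 to 0.914 and 0.548 in males. The male ExposedNic libraries overlapped air in this ratio, at 0.593 to 0.99 beside 0.931 to 0.994. Ratios were given no test.

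**Figure D4:**
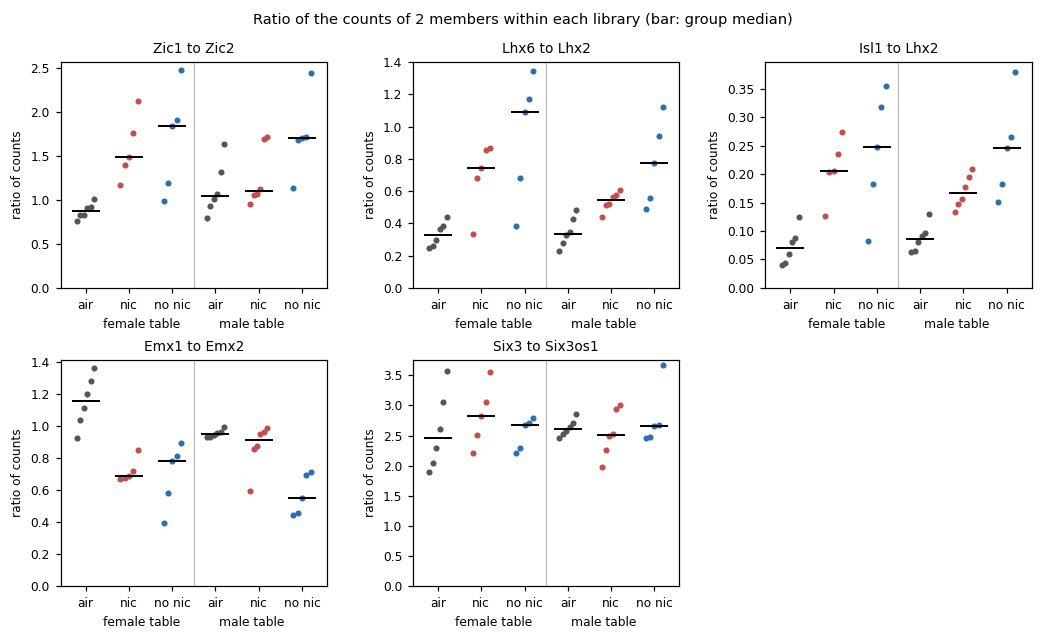
Ratio of the counts of 2 members within each library for 5 pairs, by group (air, nic and no nic; female table left of the line, male table right), with group medians as bars. The first 3 ratios have higher medians in exposed groups, Emx1 to Emx2 is lower, and Six3 to Six3os1 keeps a median between 2.46 and 2.82.

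Whether nicotine in the aerosol mattered was asked by comparing ExposedNic with ExposednoNic. In females 0 members were called by edgeR (0.0% of all genes), with 3 (6.67%) at an unadjusted p under 0.05, beside 8.36% of all genes, and 0 by DESeq2. In males 0 members were called by edgeR (0.248% of all genes), with 10 (22.2%) at an unadjusted p under 0.05, near the 20.1% of all genes. DESeq2 called 1 member there, Emx1, higher in ExposedNic by 0.61 on the log2 scale, beside 2.98% of all genes. The median member difference of ExposedNic minus ExposednoNic was 0.00 in females and -0.12 in males. Neither comparison shows that the aerosols act alike.

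Although 8 members were called in female and 0 in male ExposedNic offspring, the difference of the changes itself, male minus female, was called for 0 members (0.0% of 15105 genes, edgeR), with 3 (6.67%) at an unadjusted p under 0.05, near the 6.47% of all genes, and 0 by DESeq2. These 3, named after their values were seen, were Dlx5 (-0.41 ± 0.19), Six4 (0.87 ± 0.41) and Meis2 (-0.33 ± 0.16), log2 difference with standard error, each at an adjusted p of 0.762. For ExposednoNic the difference was likewise called for 0 members (0.0% of genes), with 1, Pou3f3, at an unadjusted p under 0.05 (4.91% of all genes) and 0 by DESeq2.

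Genes for proteins that work with these factors were also counted. Of 25 partners and cofactors, which include the LIM adaptor Ldb1, Lmo, Eya and Dach genes and Gli factors, 0 were called in either ExposedNic comparison. In females without nicotine Gli1 rose and Lmo4 fell, and in males without nicotine Ldb1 rose and Pknox2 fell, 1 of 25 in each direction, beside 5.03 to 7.47% of all genes. Among 18 tested patterning signals and receptors, Bmp4 rose in female ExposedNic, beside 1.98% of all genes. Bmp4, Fgfr1, Ptch1, Shh and Smo rose in both ExposednoNic comparisons, beside 5.03% of all genes in females and 6.15% in males. Nog, a Bmp antagonist, fell in males without nicotine, beside 7.47% of all genes. Ptch1, Smo and Gli1 belong to the Shh pathway, which patterns the ventral forebrain.

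Among other regional transcription factors, dorsal ones mostly fell where they were called. Of 24 pallial factors, 5 fell and 1 rose in female ExposedNic, 14 fell and 1 rose in female ExposednoNic and 14 fell and 1 rose in male ExposednoNic offspring, with 0 called in male ExposedNic. Tbr1 and Neurod6 were among those that fell without nicotine in both sexes, and the 1 that rose was Foxp2 each time. Their median change was -0.48, -0.58, -0.24 and -0.49 in the order female ExposedNic, female ExposednoNic, male ExposedNic and male ExposednoNic. Of 24 subpallial factors, 2, 4, 0 and 6 rose and 2, 2, 0 and 2 fell in that order. Gbx1 and Nkx6-2 were among the rising factors of the 3 comparisons with calls, while Nr2f1 and Satb1 were those that fell. Of 13 tested factors of the diencephalon 2, 4, 0 and 4 rose, with Gbx2 and Tcf7l2 in each, and Rora fell in male ExposednoNic. Beside these lists and those below, 1.98, 5.03, 0.0 and 6.15% of all genes were called higher in that order. The shares called lower were 2.32, 7.03, 0.0 and 7.47%.

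Markers of several cell types moved with the members. All 7 markers of basal forebrain cholinergic neurons, a cell group below the cortex that includes Chat, rose in female ExposedNic, female ExposednoNic and male ExposednoNic offspring, with 0 called in male ExposedNic. Their summed level was 29.9 to 100.1 CPM in female Control, 106 to 237 in ExposedNic and 129 to 337 in ExposednoNic libraries. In males it was 48.2 to 103 CPM in Control, 126 to 174 in ExposedNic and 142 to 297 in ExposednoNic. No exposed group overlapped its Control on this sum.

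Of 15 cortical excitatory neuron markers 3, 12, 0 and 11 fell in the same order of comparisons, and 1, Foxp2, rose in each of the 3 comparisons with calls. Their summed level was 8431 to 10650 CPM in female Control, 5758 to 8412 in ExposedNic and 4437 to 8251 in ExposednoNic, and 7925 to 9017, 6496 to 7439 and 4299 to 7073 CPM in males. Exposed libraries were below all Controls of their table on this sum. Of 11 striatal projection neuron markers 3, 1, 0 and 3 rose, all 11 were positive in each comparison, and the sum was 1341 to 3159 CPM in female Control, 2831 to 3915 in ExposedNic and 2477 to 3049 in ExposednoNic, and 1771 to 3079, 1985 to 3930 and 2095 to 5811 CPM in males. Of 11 oligodendrocyte markers, genes of the cells that make myelin, 8, 9, 0 and 9 rose, with sums of 8529 to 10100 CPM in female Control, 13680 to 17320 in ExposedNic and 11330 to 16670 in ExposednoNic, and 9695 to 11730, 9988 to 15160 and 13990 to 23510 CPM in males.

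The part of these cell types in the members' changes was not tested. With the mean log2 level of the 15 cortical excitatory markers as a covariate in the edgeR fit, 0 members were called in each of the 4 comparisons with air, with 7, 1, 5 and 2 at an unadjusted p under 0.05, and 0, 0, 0 and 13 of all genes were called. The median log2 fold change of the members was then 0.18, 0.13, 0.05 and 0.14, beside 0.19, 0.21, 0.12 and 0.25 without the covariate. On the summed level of these markers every exposed library lay below every Control of its table, so the score and the treatment overlap in what they describe.

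Among the remaining lists, of 11 interneuron markers Gad2 and Slc32a1, for the synthesis and vesicular loading of GABA, rose and Vip fell in the 3 comparisons with calls, in all 2, 4, 0 and 2 rising and 1, 3, 0 and 3 falling. Of 9 tested hypothalamic markers 1, 2, 0 and 3 rose, of 10 thalamic markers 2, 3, 0 and 1 rose and 0, 1, 0 and 1 fell, and of 9 tested choroid plexus and ependymal markers 0, 0, 0 and 4 rose. Their sum was 962.1 CPM in male ExposednoNic 7 and 46.1 to 65.73 CPM in the other 4 libraries of that group, and without that library 3 rose (Clic6, Foxj1 and Otx2, not Ttr), while of the members 11 rose and 3 fell. In females the choroid plexus and ependymal sum was highest in Control 3 (334.7 CPM, group median 26.67) and ExposednoNic 3 (297.3 CPM, group median 50.09). Of 5 tested cerebellar markers 0 rose and 1, 1, 0 and 2 fell, with Atoh1 at 0 counts in every library. Of the olfactory bulb markers Calb2 rose in female ExposednoNic. By edgeR 0 of 8 astrocyte, 8 microglia, 8 endothelial and 12 meningeal markers were called in any comparison.

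**Figure D5:**
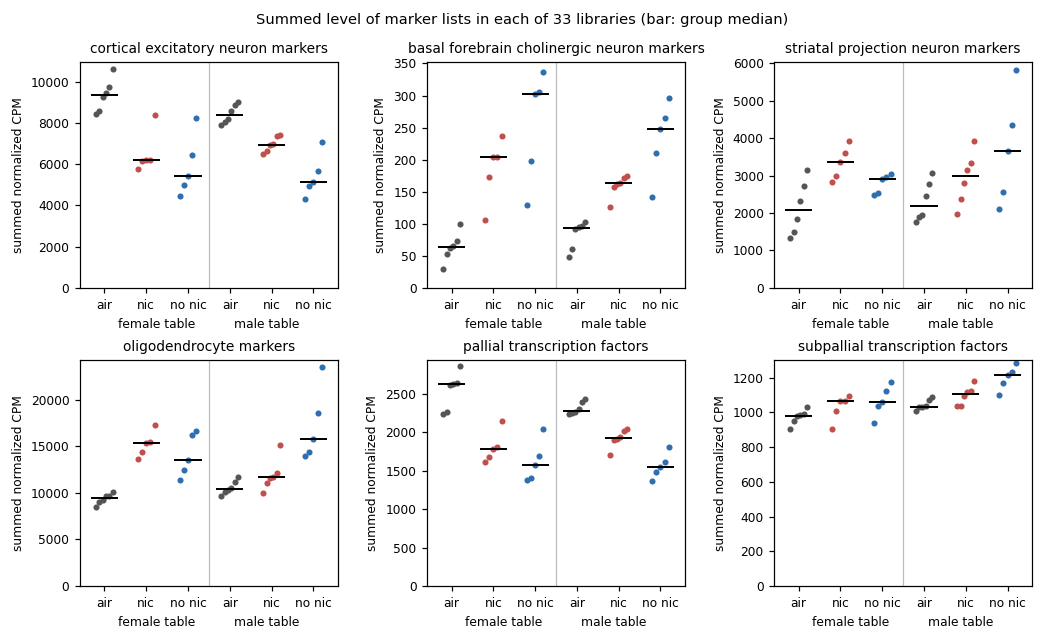
Summed normalized CPM of 6 marker lists in each library, by group (air, nic and no nic; female table left of the line, male table right), with group medians as bars. Cholinergic sums of every exposed library lie above the Controls of their table, and the cortical excitatory and pallial sums lie below them.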

How the data were processed

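RNA from the frontal cortex of 33 offspring was sequenced as single reads after TruSeq library preparation, which does not mark strand. Per the labels and the study's methods, the authors mapped reads to mm9 with Bowtie, removed PCR duplicates with SAMtools, which lowers the counts of the most abundant genes, and counted reads per gene with HTSeq. The deposited values are raw counts for 23366 genes, in 1 table per sex. Of their columns, 33 matched a labelled sample and 1 was not used. The tables of normalized values were not used here.

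Genes with a CPM summed over a table's libraries of at least 5 were tested with edgeR's quasi-likelihood test (version 4.0.16, TMM, 3 groups of a table in 1 fit), with Benjamini-Hochberg adjustment over all genes tested and a threshold of 0.01. Normalized CPM use the TMM effective library size. The difference between tables used all 6 groups. Scripts were tested on simulated data. Alternatives were DESeq2, other scalings and filters, 2 groups per fit, a marker score covariate, a replicate block and leaving out each library. Total counts of 17845672 to 27513174 per library set the precision. A median over groups is taken over libraries, and standard errors are those of the log2 fold change.

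The members, the marker and partner lists and the pairs for ratios were chosen with earlier results of these data known, so no test was run over a list. All 45 members are counted, and by rule those called at least once against Control (17) are given by library, 16 of them here; some items are not reported here. Positions are from GENCODE M1 on mm9, found for all 45, and levels per kb use the length of all its exons of a gene. Promoters are from RefSeq (GRCm38.p6), which held 32 of the 45 members, 11 of the 17 called among them.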

Additional observations from a re-analysis of the deposited data

Results flagged for a closer look

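In 102 groups of 5 or 6 libraries, made of the 17 called members in the 6 groups, 5 had a library far from the rest by Dixon's test at its 95% critical value, and chance alone marks about 1 in 20 groups. Emx1 in female ExposedNic replicate 3 was 12 CPM, where the next library had 8.16. Emx2os in male ExposednoNic replicate 3 was 3.78 CPM, where the next had 4.91. Lhx5 in female Control replicate 3 was 0.452 CPM, where the next had 0.179. Zic1 in male ExposednoNic replicate 4 was 61.9 CPM, where the next had 35.3, and the neighbouring Zic4 stood out in the same library, with 6.4 CPM beside 3.49.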

How the results depend on the processing

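With DESeq2 the number of members called was 15 in place of 8 in female ExposedNic, 18 in place of 15 in female ExposednoNic and 16 in place of 13 in male ExposednoNic. It was 4 in place of 0 in male ExposedNic and 1 in place of 0 between the male aerosols. Fitting only the 2 groups compared gave 5 in female and 1 in male ExposedNic. The marker score covariate gave 0 in place of 8, 15 and 13 in female ExposedNic, female ExposednoNic and male ExposednoNic. The median member change there was 0.18, 0.13 and 0.14, beside 0.19, 0.21 and 0.25 without it. Of the single-gene changes, 35 kept direction and lost the call, and that of Meis1 in female ExposednoNic turned to -0.014. The causes were not tested. Replicate numbers did not pair the samples: same-numbered libraries of the female groups had correlated deviations of -0.273 to 0.266 over 14 pairs. With the replicate block, 0 members were called in female ExposedNic (24 at an unadjusted p under 0.05; 136 of all genes called) and 5 in female ExposednoNic. No paired analysis was possible in males because the groups there share fewer than 2 numbers. Leaving out 1 library at a time gave 0 to 12 members in female ExposedNic, 7 to 20 in female ExposednoNic, 10 to 14 in male ExposednoNic, 0 to 1 between the male aerosols (1 without ExposednoNic replicate 7) and 0 in the others. In female ExposedNic the count fell to 0 without Control replicate 6 or ExposedNic replicate 1 or 2, to 1 without Control 2, to 2 without Control 5, ExposedNic 5 or 6 or ExposednoNic 4, to 3 without ExposednoNic 5, to 4 without Control 1 or 4 and to 5 without ExposednoNic 3. In female ExposednoNic it fell to 9 without Control 2, to 8 without Control 6 or ExposednoNic 3 or 5 and to 7 without ExposednoNic 2. For the 36 changes of single genes, 633 of 863 alternatives kept direction and call, 229 kept direction and lost the call, and 1 reversed. Upper quartile scaling moved the genes called higher in female ExposedNic from 300 of 651 (46.1%) to 372 of 614 (60.6%), with 8 members called under both. Counts of 2 to 11 per Control library limit Lhx5.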
